A study of Homo sapiens with 6 samples.

Results

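The 126 genes described here are named for proteins of the 2 ribosomes of a human cell, out of 14884 genes measured on the arrays. Of these, 53 carry names of the cytosolic ribosome, its paralogs such as RPL7L1 and RPL3L included, and 73 those of the mitochondrial ribosome. They were chosen by name alone: symbols that begin with RPL or RPS and a digit, without pseudogenes and without the RPS6 kinases, and symbols that begin with MRPL or MRPS. The rule takes 134 symbols, of which 8 name no ribosomal protein gene and were set apart by name: the readthrough RPL36A-HNRNPH2, the noncoding RPL34-DT, RPL26L1-AS1, MRPL20-AS1 and MRPL23-AS1, and the pseudogenes MRPL42P5, MRPL45P2 and MRPS31P5. Where a gene had several probe sets, the brightest by mean over the 6 arrays was used. The cytosolic genes comprise 18 of the small and 35 of the large subunit, and the mitochondrial genes 25 of the small and 48 of the large subunit. RefSeq lists 86 coding genes under the cytosolic names and 77 under the mitochondrial ones. The other 33 cytosolic genes, among them RPL3, RPL4, RPL5, RPLP0, RPS2 and RPS4X, and the mitochondrial MRPL12, MRPS6, MRPS18C and MRPS24 were not analysed here.

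The RNA came from cells of the human glioblastoma line U-87 MG, with 3 arrays, numbered by replicate, in each of 2 groups of separate cultures. Exposed cells spent 54 h, beginning 24 h after seeding, in a culture box within a Faraday chamber under electromagnetic fields (RGFIELDS) aimed at hsa-miRNA-381, mutated alpha-kinase 2, HSP70 and CHI3L1. Unexposed cells of the same line, seeded at the same density in the same serum-containing medium, were kept in a box outside that chamber. Field, chamber and culture box therefore cannot be told apart in any difference below, and all results concern a single cell line. Values are the authors' log2 expression values after RMA, which equalises the value distribution between arrays and thereby hides any change in total RNA.

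Cytosolic ribosomes translate the messenger RNAs of the nuclear genome, and their proteins are encoded by genes that most cells transcribe at high levels. Their messenger RNAs usually begin with a C followed by a run of pyrimidines, the 5′ terminal oligopyrimidine (TOP) motif, through which the kinase mTOR and the RNA-binding protein LARP1 set how much of them is translated. Mitochondrial ribosomes make the few proteins of the mitochondrial genome, all parts of oxidative phosphorylation, and their own proteins are encoded in the nucleus, made in the cytosol and imported.

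Array medians lay between 3.96 and 3.99. Correlations over all probe sets were 0.987 to 0.988 among exposed arrays, 0.985 to 0.986 among unexposed arrays and 0.982 to 0.987 between groups. Of 12 marker genes of this mesenchymal line 8 were measured, and they include VIM at a mean of 10.5 in exposed and 10.5 in unexposed cells and FN1 at 11.9 in exposed and 12.1 in unexposed cells. None of these 8 passed the threshold used throughout, a Benjamini-Hochberg adjusted p of at most 0.05 in limma, and neither did any of 18 measured markers of epithelial (7), immune (3), endothelial (3) and neural (5) cells. All 3 measured of 10 listed immune markers (CD14, CD68 and CSF1R) were higher on every exposed array than on any unexposed array. That held for 13.2% of all genes. Their log2 changes were 0.36 (CD14), 0.06 (CD68) and 0.20 (CSF1R), with limma adjusted p of 0.272, 0.504 and 0.335. Their mean level was 7.11 to 7.17 on exposed arrays and 6.79 to 7.03 on unexposed arrays. That level averages CD68 (12.3 exposed, 12.2 unexposed) with CD14 (3.33 exposed, 2.97 unexposed), which lay below the array medians. PTPRC was not among the measured genes. Of 17 measured mitosis genes 11 fell (0 to 9 with any 1 array left out), with a median log2 change of -0.50, where 1.67% of all 14884 genes fell. The mean level of those 17 was 8.77 to 9.02 on exposed arrays and 9.29 to 9.48 on unexposed arrays, and the part of these marker and mitosis values in those of ribosomal protein genes was not tested.

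The ribosomal protein genes differed little between exposed and unexposed cells. Of the 126, MRPL45 rose and 0 fell, where limma called 3.06% of all 14884 genes, 1.4% upward and 1.67% downward. No cytosolic gene passed: 0 of 53, with 3 at an unadjusted p under 0.05. Of the 73 mitochondrial genes 1 passed, and 11 had an unadjusted p under 0.05, 9 of them with positive and 2 with negative changes. The share at that unadjusted level was 5.66% of cytosolic and 15.1% of mitochondrial genes, against 18.9% of all genes. Changes under 0.2 log2 units in either direction made up 83.0% of the cytosolic, 84.9% of the mitochondrial and 69.3% of all genes. In RNA of whole cultures, fewer cells of a type and less RNA per cell cannot be told apart.

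**Figure D1:**
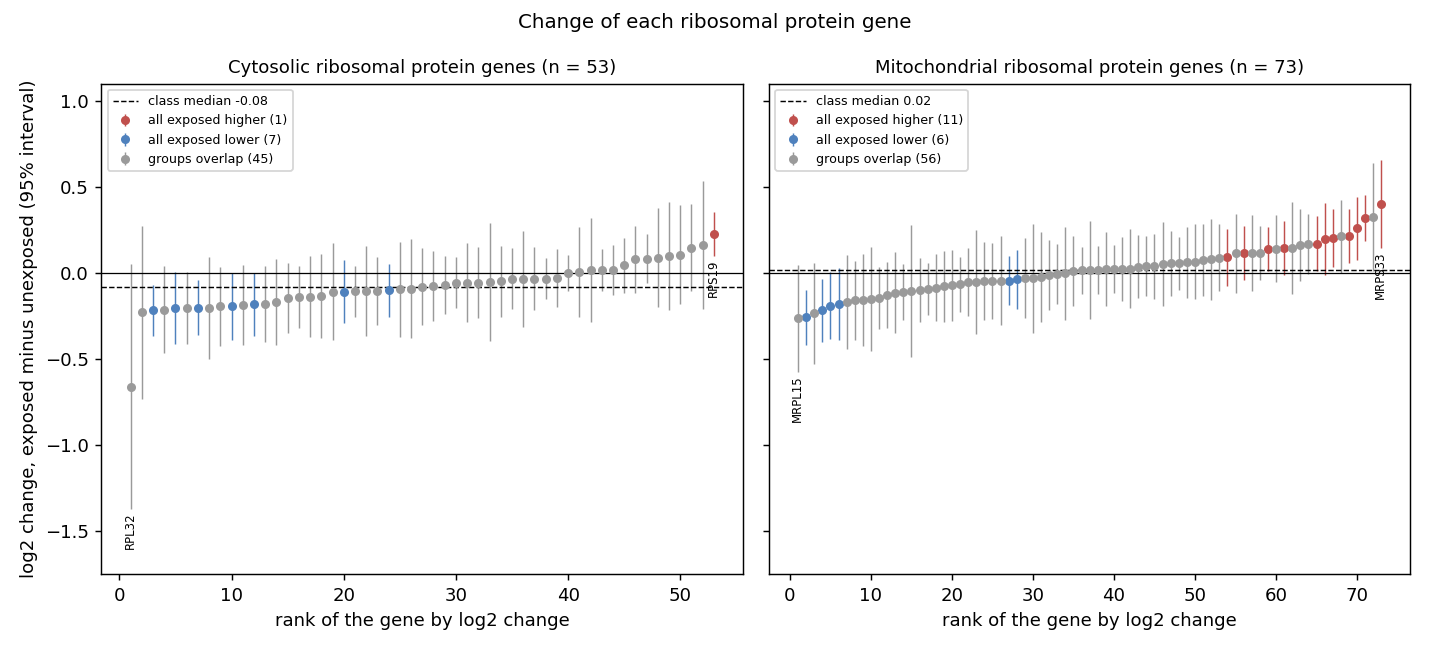
Log2 change (exposed minus unexposed) of each of the 53 cytosolic (left) and 73 mitochondrial (right) ribosomal protein genes, ordered by size, with 95% intervals from limma. Red and blue points are genes whose exposed values all lie above (1 cytosolic, 11 mitochondrial) or all below (7 cytosolic, 6 mitochondrial) the unexposed values, and the dashed lines are the class medians of -0.08 and 0.02.

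Cytosolic and mitochondrial genes lay on different sides of 0 by a small margin. The median log2 change was -0.08 over the cytosolic genes, of which 40 of 53 had negative values, and 0.02 over the mitochondrial genes, of which 34 of 73 had negative values. Over all genes the median was 0.0029, with 49.3% negative. Within the cytosolic class the large subunit had 28 of 35 negative values and a median of -0.07, and the small subunit had 12 of 18 and a median of -0.09. In the mitochondrial class the median was 0.02 for either subunit, with 22 of 48 negative values in the large and 12 of 25 in the small subunit.

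Exposed and unexposed values separated completely for 8 cytosolic genes, 1 with all exposed values higher and 7 with all exposed values lower. They separated for 17 mitochondrial genes, 11 higher and 6 lower. Over all genes 13.2% were separated with exposed values higher and 13.8% with exposed values lower. The shares were 1.89% higher and 13.2% lower among cytosolic genes, and 15.1% higher and 8.22% lower among mitochondrial genes. The downward share of the cytosolic genes was thus close to that of all genes, and their upward share was below it.

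The class means were followed on each array as the mean, over the genes of a class, of a gene's value minus its own mean over the 6 arrays. For cytosolic genes this deviation was -0.013, -0.13 and 0.030 on exposed arrays 1, 2 and 3, against -0.0059, 0.080 and 0.044 on unexposed arrays 1, 2 and 3. The groups overlapped, since exposed array 3 lay above unexposed array 1, and exposed array 2 was the lowest of all. For mitochondrial genes the deviation was 0.029, -0.070 and 0.063 on exposed arrays, against -0.032, 0.026 and -0.016 on unexposed arrays. Here too the groups overlapped, and exposed array 2 was again the lowest.

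Taken as the cytosolic minus the mitochondrial class mean of the same array, the value was -0.042, -0.065 and -0.033 on exposed arrays, against 0.026, 0.054 and 0.060 on unexposed arrays. All 3 exposed arrays lay below all 3 unexposed arrays, with means (± SD, n = 3 each) of -0.047 ± 0.016 in exposed cells and 0.047 ± 0.018 in unexposed cells. The gap of -0.09 between these means describes the classes, which were not tested against each other.

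**Figure D2:**
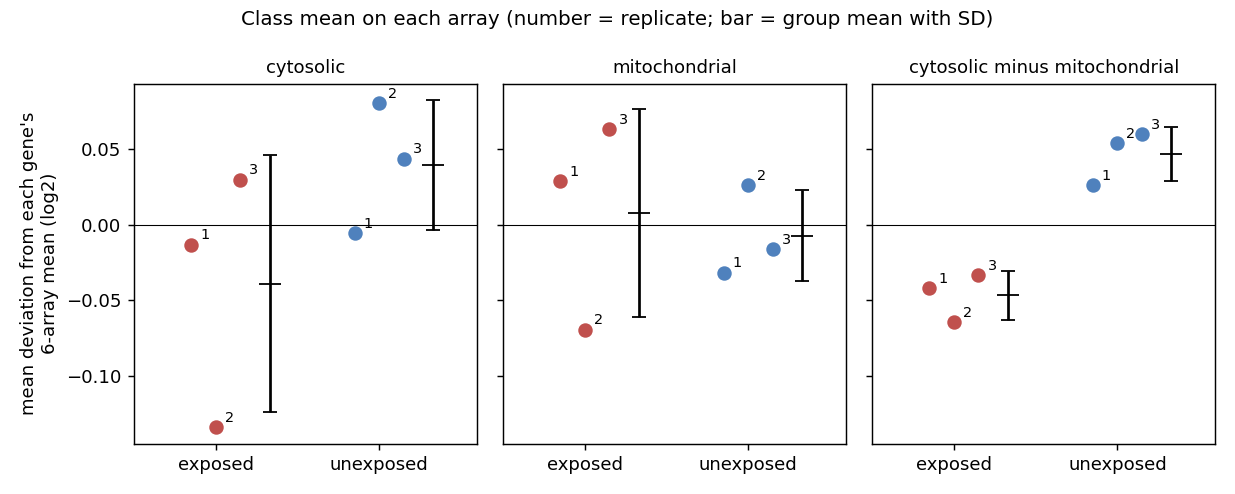
Mean deviation of cytosolic genes (left), mitochondrial genes (middle) and their difference (right) on each array in log2 units, with exposed arrays in red, unexposed arrays in blue and the group mean with SD as a bar. The groups overlap in the first pair of panels, and in the difference the exposed arrays lie between -0.065 and -0.033 and the unexposed arrays between 0.026 and 0.060.

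Single arrays weighed on the class values. Exposed array 2 was the lowest of the 6 for 32 of 53 cytosolic genes (60.4%) and 27 of 73 mitochondrial genes (37.0%), against 22.2% of all genes. Unexposed array 2 was the highest for 20 cytosolic genes (37.7%), against 23.1% of all genes. Without exposed array 2 the cytosolic median was -0.033, with 35 of 53 negative values, and the mitochondrial median was 0.047, with 28 of 73 negative values. Without exposed array 3 the mitochondrial median was -0.021, with 40 of 73 negative values. The difference of the class medians, -0.098 with all arrays, lay between -0.13 and -0.079 with any 1 array left out.

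The promoters of both classes were read from RefSeq (GRCh38.p14), with 250 bases before and 50 after the start that its promoter table gives, for 48 cytosolic and 65 mitochondrial genes. A TOP-type start, here a C at the start followed by at least 4 further pyrimidines, stood in 29 cytosolic genes (60.4%), in 5 mitochondrial genes (7.69%) and in 4.04% of all 27305 promoters. The stretches of 15 bases on either side of the start follow for members whose values are given later. Capitals mark the pyrimidine run that begins at the start, and a line without capitals has none at that base. RPS19 and RPL12 have the start typical of their class, RPL11 lacks it at the base listed, MRPL45 and MRPS33 are among the 5 mitochondrial genes that have one, and MRPL3 and MRPL41 have none.
RPS19, chr19:41860240-41860269, plus strand: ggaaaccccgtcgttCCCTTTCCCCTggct
RPL12, chr9:127451392-127451421, minus strand: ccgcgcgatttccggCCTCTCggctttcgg
RPL11, chr1:23691764-23691793, plus strand: cgcctcctggcccataaggccctcggccgg
MRPL45, chr17:38297153-38297182, plus strand: ctcccttcccggcggCCTTTgcgggaacaa
MRPS33, chr7:141014938-141014967, minus strand: gggtagagggcgggcCTTCCgggacgaggg
MRPL3, chr3:131502957-131502986, minus strand: ggctttctttccgtcgcagagagcatcggc
MRPL41, chr9:137551864-137551893, plus strand: cggccaatcggagccgctcttgctgcgacg

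Members with and without these letters are described by their changes in exposed cells. The 29 cytosolic genes with a TOP-type start had a median log2 change of -0.07, with 21 negative values, and the 19 without one had a median of -0.10, with 14 negative values. The cytosolic values were thus negative on balance on both sides of this split. The split rests on the listed start, which equalled the RefSeq gene start for 24900 of 35116 matched promoters. Cells may use another start, so the 19 may include genes whose messenger RNA begins with the motif. The 5 mitochondrial genes with a TOP-type start, MRPL44, MRPL45, MRPL53, MRPS27 and MRPS33, had positive values and a median of 0.21. The other 60 had a median of 0.015. MRPL45 passed the threshold and the other 4 did not.

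Further motifs were searched on both strands of the 300-base windows. The ETS core CCGGAAG, a site type bound by GABP and related factors, stood in 29.2% of cytosolic, 43.1% of mitochondrial and 10.7% of all promoters. The YY1 core AAGATGGC stood in 10.4%, 29.2% and 3.03%, and the NRF1 core GCATGCGC in 4.17%, 7.69% and 3.27% of the same sets. Among the 15843 promoters of coding genes alone, the shares were 4.6% for a TOP-type start, 14.2% for ETS, 3.91% for YY1 and 4.26% for NRF1, so the cytosolic NRF1 share was not above that of coding genes. The ETS and YY1 letters can share AAG, which they did in 0 member promoters, although 8 mitochondrial promoters held both. The 14 cytosolic genes with the ETS letters had a median log2 change of -0.14, with 13 negative values, and the 34 without them had a median of -0.033, with 22 negative values. In the mitochondrial class the medians were -0.0088 for the 28 genes with and 0.026 for the 37 genes without the ETS letters. A match of these letters shows no binding, and a missing match says only that the letters are not in this window.

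**Figure D3:**
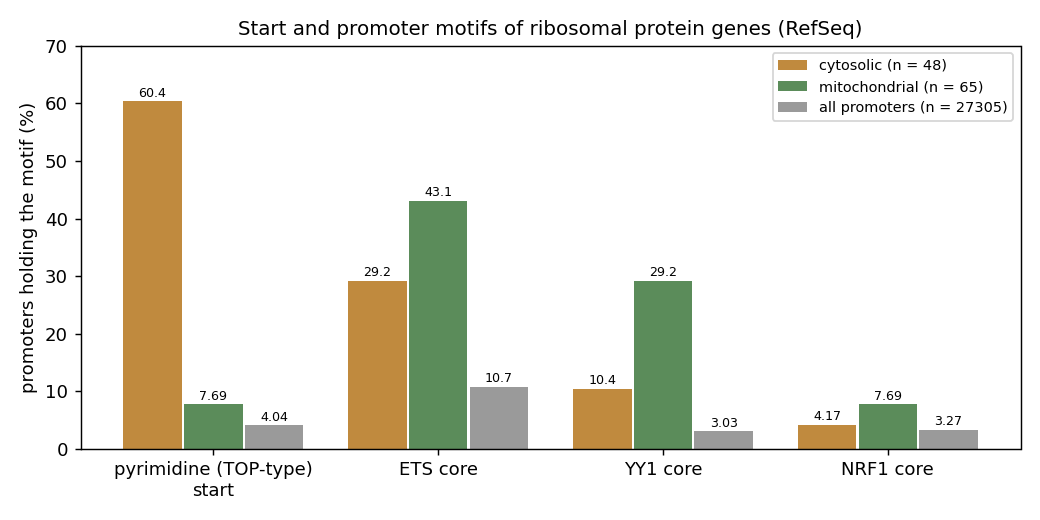
Share of RefSeq promoters, in percent, that hold a TOP-type start or the ETS, YY1 or NRF1 letters, for 48 cytosolic genes, 65 mitochondrial genes and all 27305 promoters. TOP-type starts stood in 60.4% of cytosolic and 7.69% of mitochondrial genes, while the ETS (43.1%) and YY1 (29.2%) letters were most frequent in mitochondrial genes.

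Of the cytosolic small subunit genes, RPS19 had the highest log2 change. RPS19, which is needed for maturation of the small subunit and is mutated in Diamond-Blackfan anaemia, was at 10.5, 10.5 and 10.6 in exposed cells, against 10.3, 10.4 and 10.2 in unexposed cells. All exposed values lay above all unexposed values. The change of 0.23 (SE 0.06, 1.17-fold) did not pass in limma with Benjamini-Hochberg adjustment (adjusted p = 0.0709), and its 95% interval was 0.10 to 0.36. With any 1 array left out it was 0.20 to 0.27, without passing.

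RPS18 had the lowest log2 change of the small subunit. It was at 7.83, 7.55 and 7.90 in exposed cells, against 7.86, 8.10 and 7.96 in unexposed cells. The groups overlapped at exposed array 3, and the change was -0.21 (SE 0.11, limma adjusted p = 0.346). Without exposed array 2, where it was lowest, the change was -0.11. The genes of the probe sets numbered around the one used are mostly on chromosome 3, while RPS18 is on chromosome 6. The other probe set of RPS18 had a change of -0.24. RPS26 was at 0.09, and its change lay between 0.0063 and 0.23 with any 1 array left out. RPS14 was the other small subunit gene with separated groups, with all exposed values lower at a change of -0.11.

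Of the large subunit genes, RPL32 had the lowest change of all 126, and that value turned on 1 array. RPL32 was at 4.29, 4.44 and 4.62 in exposed cells, against 4.32, 5.53 and 5.48 in unexposed cells. Unexposed array 1 lay among the exposed values, while the other unexposed arrays stood about 1 log2 unit higher. The change was -0.66 (SE 0.31, interval -1.37 to 0.05, limma adjusted p = 0.302). Without unexposed array 1 it was -1.06 (limma adjusted p = 0.0474), and without unexposed array 2 it was -0.45 (limma adjusted p = 0.591). RPL32 was dim, with an exposed mean of 4.45 where the array medians were 3.96 to 3.99. RPL22 (4.22) and RPL31 (4.55) had exposed means near those medians too. No detection calls show whether such probe sets were above background.

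RPL11 had the smallest p among cytosolic genes with negative values. With RPL5 and an RNA of the large subunit it forms the particle that binds MDM2 and stabilises p53 when ribosome assembly fails. RPL11 was at 9.61, 9.51 and 9.66 in exposed cells, against 9.74, 9.88 and 9.80 in unexposed cells. All exposed values lay below all unexposed values, and the change of -0.22 (SE 0.06, interval -0.36 to -0.07) did not pass (limma adjusted p = 0.114). With any 1 array left out it was -0.25 to -0.17.

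RPL12, a protein of the stalk base where translation factors bind, was at 11.1, 10.9 and 11.2 in exposed cells, against 11.3, 11.3 and 11.2 in unexposed cells. The groups did not overlap, though exposed array 3 (11.15) and unexposed array 3 (11.16) nearly met. The change was -0.20 (SE 0.07, limma adjusted p = 0.162). RPL14 (-0.20), RPL6 (-0.19), RPL10A (-0.18) and RPL24 (-0.10) were the other large subunit genes with all exposed values lower, and 0 large subunit genes had all exposed values higher. RPL9 had a change of -0.20 with overlapping groups. RPL31 had one of -0.23, at 4.80, 4.10 and 4.75 in exposed cells, against 4.51, 5.03 and 4.80 in unexposed cells. That value rested on exposed array 2, without which it was -0.0042, and it was -0.35 without exposed array 1, -0.36 without unexposed array 1 and -0.10 without unexposed array 2.

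The paralogs of cytosolic ribosomal proteins, some of them known from a few tissues, had changes on both sides of 0, and 0 of 8 passed. RPS27L, a p53 target in human cells, was at 5.08, 5.05 and 5.11 in exposed cells, against 4.79, 5.06 and 4.96 in unexposed cells. Only unexposed array 2 lay within the exposed range, and the change was 0.15 (interval -0.10 to 0.40), or 0.073 without unexposed array 1. Its parent RPS27 was at 0.08 (interval -0.06 to 0.22), and at 0.050 to 0.14 with any 1 array left out.

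RPL22L1, which can stand in for RPL22 in the ribosome, had a change of 0.11 (interval -0.18 to 0.39) and its parent RPL22 one of 0.10 (interval -0.21 to 0.42). RPL22L1 lay between 0.021 and 0.24, and RPL22 between 0.0096 and 0.20, with any 1 array left out. The germ cell paralog RPL10L had a change of 0.16 (interval -0.21 to 0.53) on a dim probe set, at 3.17 ± 0.08 in exposed cells and 3.01 ± 0.22 in unexposed cells, where the array medians were near 4. It lay between 0.048 and 0.27 with any 1 array left out, and its parent RPL10 was at -0.03 (-0.065 to -0.0019).

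RPL39L, another paralog known from the male germ line, had a change of -0.20 (interval -0.50 to 0.09), and its parent RPL39 one of 0.04. RPL39L was at -0.11 without exposed array 3 and -0.13 without unexposed array 3, and RPL39 lay between 0.011 and 0.080 with any 1 array left out. RPL7L1 had a change of -0.14, the muscle paralog RPL3L one of -0.05, and RPL36AL and RPL26L1 had -0.03 each. RPL26 was at -0.07. With any 1 array left out RPL26 lay between -0.14 and -0.036 and RPL36AL between -0.061 and -0.015. Left-out arrays turned the sign for RPL3L (0.099 without unexposed array 1) and for RPL26L1 (0.049 without exposed array 2 and 0.053 without unexposed array 2).

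Signals of the cytosolic genes are uncertain as to the copy, because their processed pseudogenes are numerous. RefSeq names 979 pseudogenes after 46 of the 53 cytosolic genes, with a median of 13 and a maximum of 64 (RPL31) for each gene. For the mitochondrial class it names 90, after 38 of the 73 genes, with a median of 1. Probe set numbers ran along chromosomes for most named probe sets around these genes, so the chromosome of the 10 flanking named probe sets was compared with that of the gene. For RPS18, RPS27 and RPS28 at least 8 of those 10 were on another chromosome, and for RPL10, RPL12, RPL31 and RPL41 they were mixed, while for all 73 mitochondrial genes at least 8 were on the chromosome of the gene. Without those 7 genes the cytosolic median was -0.085, with 35 of 46 negative values.

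Among mitochondrial genes, MRPL45 of the large subunit was the member that passed. Its protein lies at the exit of the ribosomal tunnel and helps anchor the ribosome to the inner mitochondrial membrane. MRPL45 (probe set 16833605) was at 9.61, 9.56 and 9.67 in exposed cells, against 9.23, 9.33 and 9.32 in unexposed cells. The lowest exposed value stood above the highest unexposed value. The gene rose by 0.32 (SE 0.06, interval 0.18 to 0.45, 1.25-fold) with an adjusted p of 0.0359 in limma with Benjamini-Hochberg adjustment. The call was lost with any 1 of the 6 arrays left out, with changes of 0.29 to 0.35 and limma adjusted p from 0.0731 to 0.134. It was also lost when p-values were adjusted over all probe sets (limma adjusted p = 0.0588). The probe set named for the pseudogene MRPL45P2 had a change of 0.00083.

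MRPS33, a small subunit protein, had the highest change of all 126 genes without passing. It was at 6.25, 6.01 and 6.06 in exposed cells, against 5.66, 5.60 and 5.87 in unexposed cells. All exposed values lay above all unexposed values, and the change was 0.40 (SE 0.11, interval 0.15 to 0.66, limma adjusted p = 0.0967). With any 1 array left out it was 0.33 to 0.48. In the small subunit MRPS26 (0.20), MRPS30 (0.15) and MRPS12 (0.12) also had all exposed values higher, and MRPS2 (-0.04) had all lower.

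MRPL41 and MRPL18 of the large subunit had separated groups with exposed values higher. MRPL41 was at 6.70, 6.54 and 6.66 in exposed cells, against 6.34, 6.41 and 6.39 in unexposed cells, a change of 0.26 (SE 0.08, limma adjusted p = 0.124). MRPL18 was at 8.47, 8.37 and 8.53 in exposed cells, against 8.19, 8.29 and 8.23 in unexposed cells, a change of 0.22 (SE 0.07, limma adjusted p = 0.131). MRPL44, a protein with a ribonuclease III-like fold that is mutated in a cardiomyopathy, had a change of 0.21. MRPL53 (0.17), MRPL34 (0.14) and MRPL36 (0.09) had all exposed values higher as well.

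MRPL33 had the second highest change of the class but overlapping groups, at 7.12, 6.78 and 7.29 in exposed cells, against 6.64, 6.70 and 6.87 in unexposed cells. Exposed array 2 lay below unexposed array 3, and the change of 0.33 (SE 0.14) was 0.21 without exposed array 3. MRPL11, of the stalk base, had a change of 0.21 with overlapping groups.

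In the other direction MRPL3 had the smallest p. MRPL3, a core protein near the peptidyl transferase centre whose mutation causes a human cardiomyopathy, was at 9.26, 9.09 and 9.22 in exposed cells, against 9.44, 9.53 and 9.38 in unexposed cells. All exposed values lay below all unexposed values. The change was -0.26 (SE 0.07, interval -0.42 to -0.10, limma adjusted p = 0.0922), and -0.29 to -0.21 with any 1 array left out.

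MRPL38 was at 6.66, 6.60 and 6.80 in exposed cells, against 6.91, 6.87 and 6.94 in unexposed cells, a change of -0.22 (SE 0.08) without overlap. MRPL20 (-0.19), MRPL30 (-0.18) and MRPL51 (-0.04) had all exposed values lower too, and MRPL30 was at -0.086 without exposed array 2. MRPL15 had the lowest change of the class, -0.26 (SE 0.13), with overlapping groups, and was at -0.13 without exposed array 2 and -0.17 without unexposed array 2. MRPS18B, one of the mitochondrial counterparts of bacterial protein S18, had a change of -0.23 with overlapping groups, and was at -0.14 without exposed array 2 and -0.13 without unexposed array 2.

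**Figure D4:**
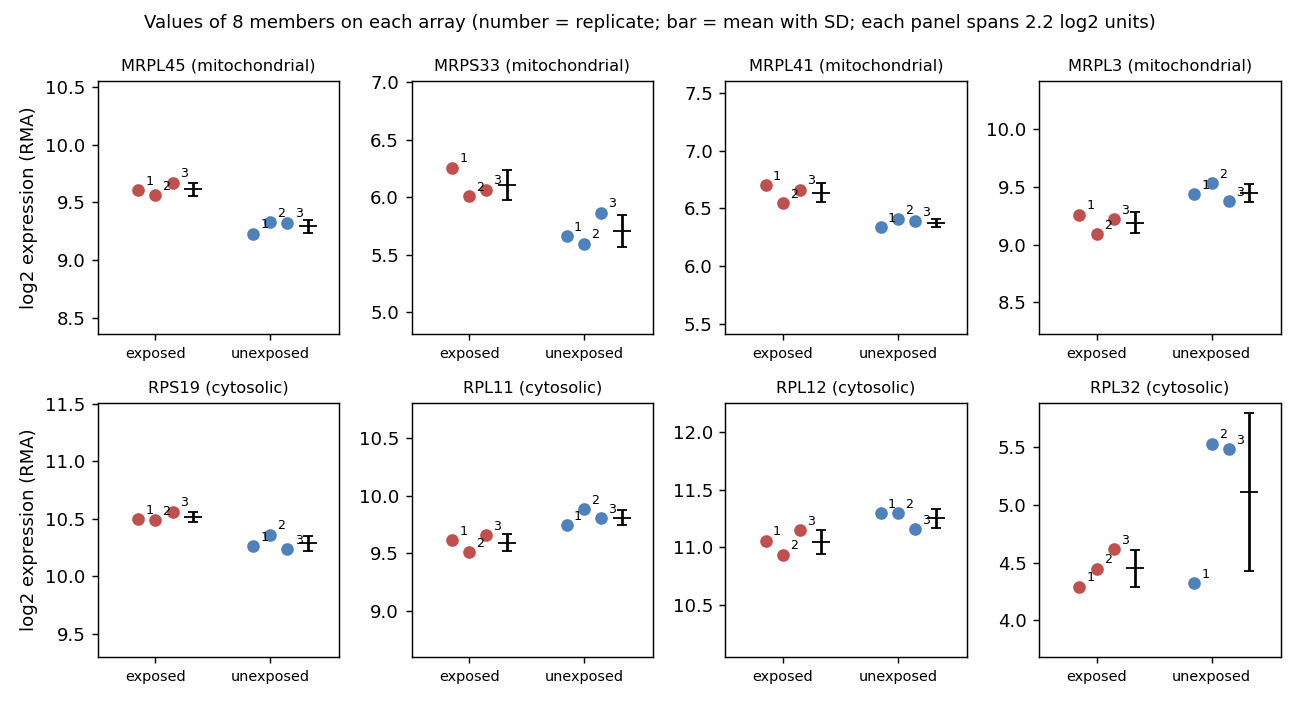
Log2 expression of 8 ribosomal protein genes on each array, with exposed arrays in red on the left, unexposed arrays in blue on the right and the mean with SD as a bar; every panel spans 2.2 log2 units. The exposed values of MRPL45, MRPS33, MRPL41 and RPS19 all lie above the unexposed values, those of MRPL3, RPL11 and RPL12 all below, and unexposed array 1 of RPL32 lies among its exposed values.

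Further probe sets of the same gene were at hand for 4 cytosolic and 4 mitochondrial genes. RPL19, RPL39, MRPS16 and MRPS2 had one of opposite sign, and the further probe sets of RPL41 differed among themselves in sign. Those of RPS18, MRPS18B and MRPL44 had the sign of the set used. All further sets of MRPS18B had the same change as the set used, -0.235, so their sign adds no independent agreement. When all probe sets of a gene were averaged, RPL39 was at -0.059.

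Ribosomal proteins with other names had no member past the threshold either. FAU, whose product is processed into a small subunit protein, was at 6.09, 6.03 and 6.27 in exposed cells, against 6.08, 6.18 and 6.09 in unexposed cells, a change of 0.01 (-0.058 to 0.062 with any 1 array left out). Of 3 measured mitochondrial small subunit parts, PTCD3 had all exposed values higher, at 7.50, 7.49 and 7.68 in exposed cells, against 7.41, 7.31 and 7.35 in unexposed cells, with a change of 0.20 (SE 0.08, limma adjusted p = 0.217). DAP3, a GTP-binding protein of the small subunit, was at -0.12 and -0.039 without exposed array 2. CHCHD1 was at -0.11, and at 0.028 without unexposed array 2.

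Of the factors that build cytosolic ribosomes, 3 fell and 0 rose among 70 measured of 100 listed, with a median of -0.06 and 49 negative values, where 1.67% of all genes fell and 1.4% rose. All exposed values were lower for 25 of the 70 and higher for 4, against 13.8% and 13.2% of all genes. RRP1, a nucleolar protein of ribosomal RNA processing, was at 7.57, 7.50 and 7.70 in exposed cells, against 8.10, 8.29 and 8.03 in unexposed cells, and fell by 0.55 (SE 0.09, limma adjusted p = 0.0312). DDX21, a nucleolar RNA helicase, was at 9.54, 9.53 and 9.57 in exposed cells, against 9.78, 10.07 and 9.92 in unexposed cells, and fell by 0.38 (SE 0.08, limma adjusted p = 0.0469). NHP2, a core protein of the particles that pseudouridylate ribosomal RNA, fell by 0.32 (SE 0.07, limma adjusted p = 0.0490). UTP25 (0.38) and RRS1 (0.34) had the smallest p among positive values and did not pass. DDX21 and NHP2 lost their calls with any 1 array left out, and RRP1 kept its call only without exposed array 3 (limma adjusted p = 0.0393).

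Among RNA polymerase I genes, which make the ribosomal RNA, 0 of 5 measured of 20 passed, with a median of 0.02. POLR1F was at -0.24, RRN3 at -0.12, POLR1H at 0.13 and POLR2F, a subunit shared between polymerases, at 0.04. POLR2F was at -0.028 without exposed array 3 and -0.0027 without unexposed array 1, and RRN3 lay between -0.19 and -0.028 with any 1 array left out, nearest to 0 without unexposed array 2.

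Of the translation initiation factors 12 of 42 were measured and 0 passed, with a median of -0.15, 10 negative values and 6 genes with all exposed values lower, against 13.8% of all genes. EIF5, which triggers GTP hydrolysis on the initiation complex, was at 7.35, 7.25 and 7.35 in exposed cells, against 7.52, 7.80 and 7.65 in unexposed cells, a change of -0.34 (SE 0.09, limma adjusted p = 0.0770). EIF4H, a helper of the helicase EIF4A, was at -0.19, while EIF1B was at 0.26 and EIF5B at 0.01. With any 1 array left out EIF1B lay between 0.088 and 0.34, lowest without unexposed array 1, and EIF5B between 0.00049 and 0.022. Of the elongation and termination factors 8 of 13 were measured, 0 passed, and the median was 0.05. GSPT1, a release factor, had a change of 0.21 and EEF1A1 one of 0.11, while EEF2 was at -0.11 and EEF1G at -0.14. EEF1A1 was at 0.054 without exposed array 1 and EEF2 at -0.063 without exposed array 2, and EEF1G was at -0.075 without exposed array 2 or unexposed array 2.

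Among regulators of ribosomal protein mRNA, 19 of 32 were measured, 2 fell and 0 rose, against 1.67% and 1.4% of all genes, with a median of -0.02. NRF1, nuclear respiratory factor 1, a transcription factor of nuclear genes for mitochondria, was at 6.67, 6.77 and 6.98 in exposed cells, against 7.26, 7.24 and 7.26 in unexposed cells, and fell by 0.45 (SE 0.09, limma adjusted p = 0.0471). PCBP2, which binds runs of C in RNA, was at 5.58, 5.77 and 5.82 in exposed cells, against 6.32, 6.11 and 6.22 in unexposed cells, and fell by 0.49 (SE 0.10, limma adjusted p = 0.0456). Groups were separated for both genes. PCBP2 lost its call with any 1 array left out, and NRF1 kept its call only without exposed array 3 (limma adjusted p = 0.0334).

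AKT1S1, which encodes the mTOR complex inhibitor PRAS40, was at 8.48, 8.52 and 8.38 in exposed cells, against 8.12, 7.68 and 7.99 in unexposed cells. Its change of 0.53 (SE 0.11) just missed the threshold (limma adjusted p = 0.0511), and TSC1, part of another restraint on mTOR, was at 0.27. TSC2 of the same list was at -0.17 with overlapping groups. Of the 19 measured regulators 8 had positive and 11 negative values, and the activity of mTOR was not tested. The 5 mitochondrial ribosomal protein genes whose promoters hold the NRF1 letters had a median of -0.031, with 3 negative values. The 60 without them had a median of 0.025, with 26 negative values. A link of these values to the fall of NRF1 was not tested.

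On the mitochondrial side 0 of 11 measured translation factors of 15 passed, with a median of -0.07. TACO1, the translational activator of cytochrome oxidase subunit I, was at 7.95, 7.90 and 7.96 in exposed cells, against 8.18, 8.35 and 8.23 in unexposed cells, a change of -0.32 (SE 0.07, limma adjusted p = 0.0517). MRRF, the mitochondrial ribosome recycling factor, was at 5.68, 5.29 and 6.01 in exposed cells, against 6.04, 6.27 and 6.39 in unexposed cells, a change of -0.57 (SE 0.18, limma adjusted p = 0.143). MTIF3, a mitochondrial initiation factor, was at 0.28, and at 0.15 without exposed array 1. MTRF1L, a release factor, was at 0.05, at -0.020 without unexposed array 1 and at -0.11 when its probe sets were averaged.

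Of 32 genes of mitochondrial ribosome assembly and mitochondrial DNA expression 25 were measured and 0 passed, with a median of -0.0086. MRM2, a methyltransferase of mitochondrial ribosomal RNA, had a change of -0.40 and the exoribonuclease PNPT1 one of -0.38. FASTKD1 was at 0.27 and the mitochondrial RNA polymerase POLRMT at 0.21. None of the 17 mitochondrial aminoacyl-tRNA synthetases listed was among the measured genes.

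Of the genes of nucleolar stress and ribosome quality control, 11 of 16 were measured and 0 passed, with a median of -0.02. MDM4, a partner of MDM2 in holding down p53, had a change of -0.33. Of the parts that clear stalled ribosomes, the ubiquitin ligase LTN1 was at -0.21, its partner NEMF at 0.20 (0.13 without unexposed array 1) and the helicase ASCC3 at 0.19.

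**Figure D5:**
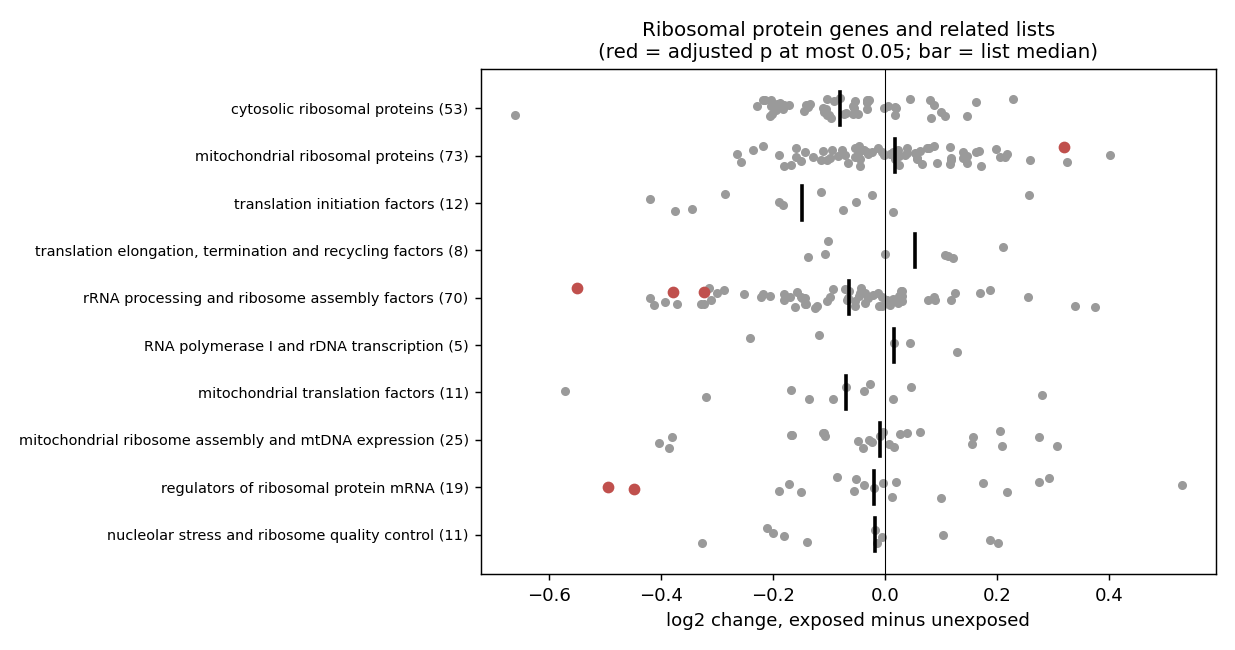
Log2 change (exposed minus unexposed) of the genes of both ribosomal protein classes and of 8 related lists, with the number measured in brackets and a bar at each median. Red points passed an adjusted p of 0.05: MRPL45, the assembly factors RRP1, DDX21 and NHP2, and the regulators PCBP2 and NRF1.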

How the data were processed

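Biotin-labelled RNA from 6 cultures was measured on Affymetrix arrays. The deposited table holds the authors' log2 values of 53617 probe sets, made with RMA, Affymetrix Expression Console 3.0 and Transcriptome Analysis Console 3.0, per the submitters' processing notes; the genome build is not given in the sources used here. One label field of the exposed samples also holds the word control, and groups were taken from the titles. Exactly 1 gene symbol was given for 16098 probe sets, and the other 37519, with no symbol or more than 1, were not assigned to a gene. Genes called measured are the 14884 that had a probe set with exactly 1 symbol, so a gene not measured may still have probes on the array. Names, chromosomes, pseudogenes and promoter sequences come from RefSeq (GRCh38.p14).

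Changes are exposed minus unexposed from a two-sided limma fit (version 3.58.1, R 4.3.3; moderated by eBayes with its trend option) to all probe sets, with no filter and no covariate. Benjamini-Hochberg adjustment ran over the 14884 genes, with a threshold of 0.05. Intervals are 95% intervals, and group values are means ± SD. The steps were tested on simulated data. Figures were drawn with matplotlib 3.10.9 in Python 3.11.15. The table holds no detection calls, and precision is limited by the number of arrays. Per the titles replicates are biological replicates.

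Members named are those past the threshold, the 6 highest and 6 lowest of each class, and the cytosolic paralogs with their parents; of each related list, those past the threshold and the pair with the smallest p in each direction. Separated members, promoter groups and single further genes outside this rule were named after their values were seen. Members and lists were chosen with earlier results of these data known. Same-numbered arrays of both groups deviated from their group means with correlations of -0.016, -0.025 and 0.0096, so the numbers do not pair the samples. Alternatives were a replicate block, another quantile normalization, median centring, no trend, dim probe sets left out, averaged probe sets, adjustment over all probe sets, each array left out and, added after seeing the data, other choices of members.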

Additional observations from a re-analysis of the deposited data

How the results depend on the processing

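The difference of class medians, cytosolic minus mitochondrial, stayed negative under every alternative run: -0.10 to -0.084 over the alternatives that kept all arrays and -0.13 to -0.079 with 1 array left out. The cytosolic median stayed negative too, between -0.11 and -0.033 with 1 array left out, while the mitochondrial median lay between -0.021 and 0.047 there. Counts of called genes were less stable. With 1 array left out, 0 or 1 of the ribosomal protein genes passed (0 or 1 cytosolic, 0 mitochondrial), the 1 being RPL32 without unexposed replicate 1, and all genes past the threshold numbered 0 to 325, with 67 without unexposed replicate 1. At an unadjusted p under 0.05, 10 to 23 of the members passed in these settings.

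Counted as all genes past the threshold (456 with all arrays), the other settings ran from 0 to 1173. With the replicate block 0 members and 0 of all genes passed in limma (12 members and 2286 genes at an unadjusted p under 0.05). Whether the replicate number pairs the samples is not known. Without a mean-variance trend 0 members and 0 of all genes passed (5 and 2220 unadjusted), and with adjustment over all probe sets 0 members and 162 genes. Quantile normalization again gave 2 members, MRPL45 and RPS19 (1 cytosolic), and 521 genes. Averaged probe sets, fitted on 1 value per gene, gave 5 members and 1173 genes. The members were 2 cytosolic genes, RPL11 and RPS19, and 3 mitochondrial genes, MRPL3, MRPL45 and MRPS33. These 5 have 1 probe set each, so averaging left their values unchanged. What differed for them was the fit, which ran on gene values instead of all probe sets. Probe sets above the median level gave 753 genes. The cause of these shifts was not tested, beyond the fewer tests in the last setting.

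Signs turned for RPL39 (-0.059) and MTRF1L (-0.11) with averaged probe sets. With 1 array left out, RPL3L lay between -0.16 and 0.099, RPL26L1 between -0.12 and 0.053, FAU between -0.058 and 0.062, POLR2F between -0.028 and 0.11, MTRF1L between -0.020 and 0.10, and CHCHD1 between -0.22 and 0.028. The other choices of members, added after seeing the data, turned no class median. The 3 arrays in each group limit the precision, and the table does not show which probe sets were above background.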
